A study of Mus musculus with 8 samples.

Results

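The genes described here encode the nuclear subunits of respiratory complexes I, III and IV and of ATP synthase (complex V), together with cytochrome c. Members were all genes with a symbol starting with Nduf followed by a, b, c, s or v and a number, with Uqcr, with Cox4 to Cox8 or with Atp5, plus Cyc1 and Cycs, read by a probe set with 1 gene symbol. They numbered 79 of 18193 genes on the array: 35 of complex I, 9 of complex III, 17 of complex IV, 17 of complex V, and Cycs. Each was represented by its brightest probe set. Ndufa11 and Ndufs6 were read only by probe sets with several symbols.

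Complex I takes electrons from NADH, complex III passes them from ubiquinol to cytochrome c, and complex IV hands them to oxygen. Complexes I, III and IV move protons across the inner mitochondrial membrane, and ATP synthase turns the returning flow into ATP. Each complex joins subunits encoded in the nucleus with subunits encoded in mitochondrial DNA, and some complex IV subunits exist as a general form and as forms of particular tissues.

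Cultured palatal mesenchyme of 2 genotypes was compared, all on the C57BL/6J background and collected at embryonic day 13.5. The 4 mutant samples carried Tgfbr2 fl/fl; Wnt1-Cre, in which Cre acts in the cranial neural crest and its descendants. The 4 control samples, titled wildtype in the labels, carried the same Tgfbr2 fl/fl alleles without Cre. Cells of both genotypes grew in DMEM with supplements and were harvested after 2 passages, and total RNA went onto 1 Affymetrix array per sample. The study asked how impaired TGF-beta signalling affects metabolism in these cells. Whether each sample is 1 embryo or a pool is not stated in the labels. The p-values cover only the spread among these samples, which may be technical. Protein and oxygen use were not analysed here. In bulk samples, fewer cells of a type and less RNA per cell cannot be told apart.

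Deposited values were log2 intensities between 3.21 and 15.18, with array medians of 6.90 to 6.96, and differences below are mutant minus control on that scale. Of 12 palatal mesenchyme markers, 10 exceeded the median probe set on each of the 8 arrays. Tgfbr2 itself averaged 12.42 ± 0.47 in mutants and 12.04 ± 0.40 in controls (SD, n = 4 each; difference 0.37, adjusted p = 0.538 by limma), with overlapping arrays. The sources used here do not place its probes inside or outside the deleted segment, so this level does not check the labels. Macrophage and leukocyte markers were also present, and 20 of 21 exceeded the median probe set on every array. Their mean was 13.19, 13.20, 13.22 and 11.08 in mutants 1 to 4 and 12.40, 12.61, 11.21 and 11.04 in controls 1 to 4. Mutants 1 to 3 were the highest, and mutant 4 lay with controls 3 and 4. The bioB hybridisation controls split the arrays too, at 6.34 to 6.52 for replicates 1 and 2 of both genotypes and 8.24 to 8.79 for replicates 3 and 4. The poly-A labelling controls were low (6.57 to 7.27) on mutants 3 and 4 and control 3 and higher (8.14 to 8.73) on the other arrays.

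No subunit gene passed the test between genotypes. None of the 79 members passed an adjusted p of 0.05 (limma, Benjamini-Hochberg over all genes), against 16 of all 18193 genes, or 0.0879%. Just 2 members, Ndufb8 and Cox7c, reached an unadjusted p under 0.05, which is 2.53% of members against 15.5% of all genes. Both were higher in mutants. In 4 members (5.06%) the genotypes did not overlap, against 8.07% of all genes. The lowest adjusted p of any member was 0.261.

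The differences were also small in size: 75 of 79 members differed by less than 0.25, against 74.1% of all genes and 73.9% of the 1263 genes with a mean above 12. The median absolute difference was 0.07 for members and 0.12 for all genes, and the median spread within a genotype (SD) was 0.09 and 0.17. Of the signed differences, 60 were positive and 19 negative, with a median of 0.05 beside -0.01 for all genes. No test was made of this offset. Centring each array on its median brought the members' median to 0.01 and the median of all genes to -0.04. Genes above 12 had a median absolute difference of 0.12, like all genes, but their median level of 12.78 was below the members' 13.27. The 117 genes above 14, 8 of them members, had a median absolute difference of 0.05, and 93.2% of them differed by less than 0.25. The part of signal level in the small differences of the members was not tested.

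**Figure D1:**
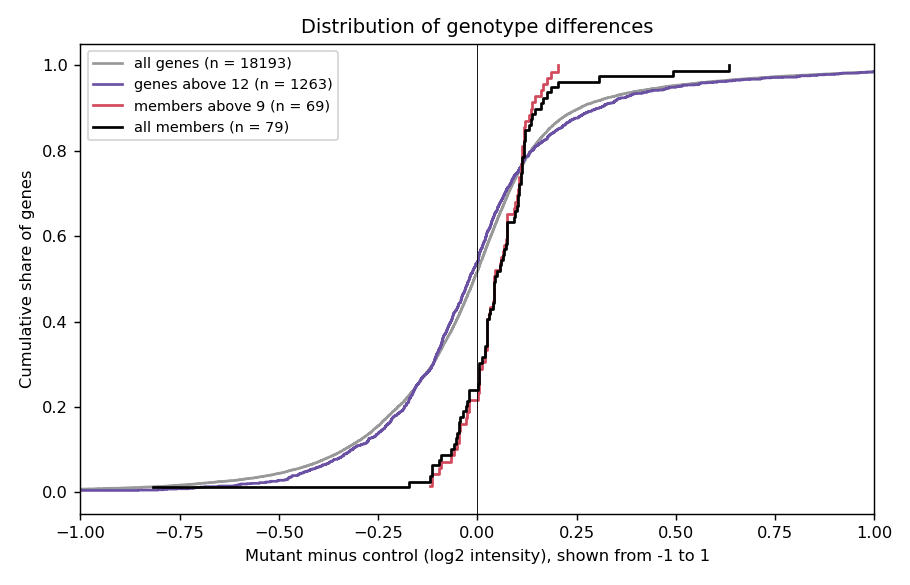
Cumulative share of genes against the mutant minus control difference (log2 intensity, shown from -1 to 1) for all 18193 genes, the 1263 genes above 12, the 69 members above 9 and all 79 members. The member curves are steeper than both curves of other genes and cross the middle of the vertical axis just right of 0, at a median of 0.05 for all members.

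The intervals of the fit give a range for each member's difference in array intensity, not in transcript number. Above a mean of 9 lay 69 members, all of them at 9.50 or higher, a split chosen after the values were seen. In each of the 69 the 95% interval lay between -0.37 and 0.49, so none reached 0.5, which is a 1.41-fold difference in intensity. Intensities near the top of the range can understate a change in RNA, and the size of that effect was not tested. These intervals are per gene and not adjusted for the number of genes. The other 10 members had means of 8.67 or lower: Cox4i2, Cox6a2, Cox6b2, Cox7a1, Cox7b2, Cox7c, Cox8b, Cox8c, Ndufa4l2 and Ndufb4. All 4 differences beyond 0.25 belonged to them (Ndufa4l2, Cox7a1, Cox7c and Cox6b2), and of the 6 members with an SD above 0.25 within genotypes 5 were among these 10, the other being Uqcrc2.

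**Figure D2:**
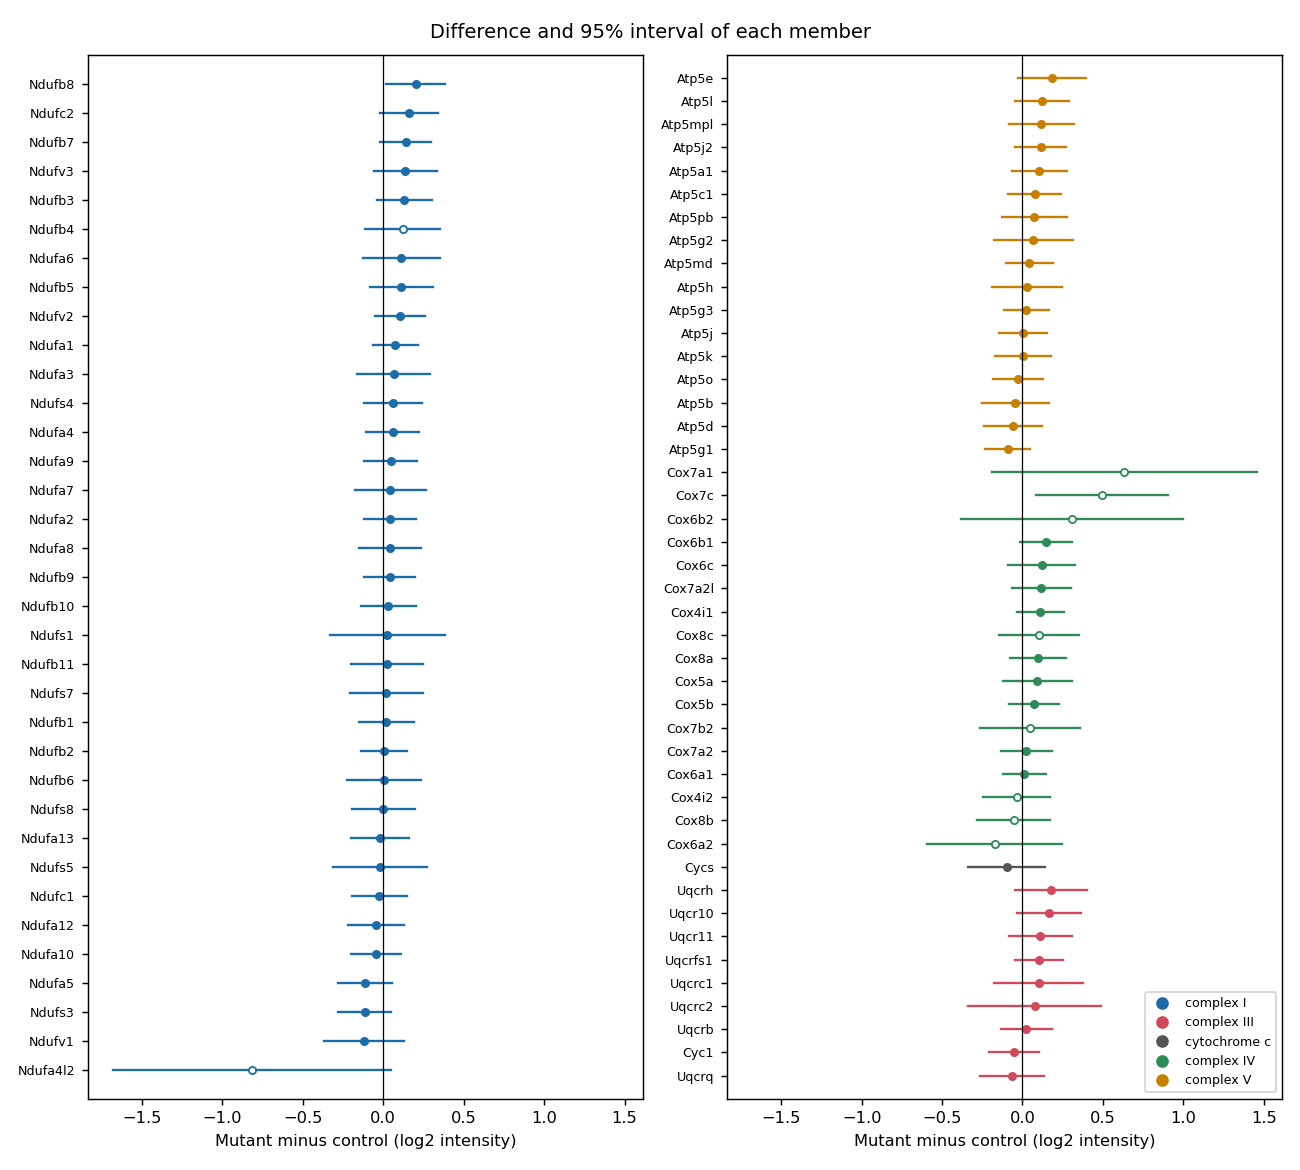
Mutant minus control difference (log2 intensity) with limma's 95% interval for each of the 79 members, coloured by complex; open circles mark the 10 members with a mean of 9 or lower. Intervals of 77 members span 0, those of Cox7c and Ndufb8 do not, and Ndufa4l2 and Cox7a1 have the widest.

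Complex I was nearly level. Its 35 members had a median of 0.04, with 26 positive, and its 33 members above 9 ran from -0.12 to 0.20. The 6 core subunits measured here, which carry the flavin and iron-sulfur clusters or shape the quinone site, had a median of 0.01. Among them, Ndufv1, the flavin subunit that accepts electrons from NADH, differed by -0.12, and its partner Ndufv2 by 0.10. Ndufs1, the largest iron-sulfur subunit, read 11.07, 11.14, 10.73 and 10.64 in mutants and 10.95, 11.13, 10.56 and 10.84 in controls, a difference of 0.02 (SE 0.16). Its genotypes overlapped fully, with replicates 1 and 2 high and replicates 3 and 4 low in both.

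The 27 accessory subunits, which brace the core and help it assemble, had a median of 0.04 and ran from -0.11 to 0.20. Ndufb8, an accessory subunit of the membrane arm, was 13.66, 13.47, 13.61 and 13.38 in mutants and 13.34, 13.37, 13.30 and 13.29 in controls. Every mutant lay above every control, by a gap of only 0.01 between mutant 4 and control 2. The difference was 0.20 (SE 0.08, adjusted p = 0.285), a fold of 1.15, and Ndufb8 did not pass. A dimmer probe set of the gene, at a mean of 8.30, differed by -0.04. Ndufa1, a small subunit needed to assemble the complex, also had separate genotypes, at 13.79 to 13.83 in mutants and 13.70 to 13.78 in controls, and differed by 0.07. Ndufc2, another membrane arm subunit, differed by 0.16 (adjusted p = 0.367). Its 3 further probe sets differed by 0.15 to 0.20, and in 1 of them the genotypes did not overlap.

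Ndufa4 is named for complex I, although its protein is found with complex IV, and Ndufa4l2 is its hypoxia-inducible paralog. Ndufa4 was even, at 13.70 ± 0.07 in mutants and 13.64 ± 0.07 in controls (SD, n = 4 each), a difference of 0.06. Ndufa4l2 read 7.65, 7.95, 7.86 and 8.03 in mutants and 8.60, 8.95, 9.65 and 7.58 in controls. Controls 1 to 3 lay above every mutant and control 4 below every mutant. The difference of -0.82 (SE 0.38) was the largest in size of any member and did not pass (adjusted p = 0.343). It was -1.19 without control 4 and -0.50 without control 3, neither passing. Within the first hybridisation batch, replicates 1 and 2, it was -0.97 (adjusted p = 0.0152), in a fit where 2085 genes, 11.5% of all, passed. Within the second batch it was -0.66 (adjusted p = 0.876). Pericyte markers averaged 6.78, 6.78, 6.90 and 7.18 in mutants and 6.92, 6.95, 7.45 and 7.44 in controls, with 3 of 7 above the median probe set throughout. Control 4, lowest for Ndufa4l2, was among the arrays highest for that list. Of the list, Mcam and Cspg4 had the largest differences, at -1.16 and -0.72, and Notch3 differed by -0.12. Rgs5, Kcnj8, Abcc9 and Higd1b averaged 6.55 or lower in either genotype and differed by -0.05 to 0.05. Whether pericytes were present was not tested, nor was their part in the Ndufa4l2 values.

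Complex III, the cytochrome bc1 complex, had 9 members with a median of 0.10, of which 7 were positive and none separate between genotypes. Its members ran from -0.07 for Uqcrq to 0.18 for Uqcrh, the hinge protein between cytochrome c1 and cytochrome c (adjusted p = 0.419). Further probe sets of Uqcrq, dim at means of 7.22, 6.65 and 5.97, differed by -0.09, 0.26 and 0.17. The one at 0.26 had no overlap between genotypes, and none of them passed over all probe sets. The small subunit gene Uqcr10 differed by 0.17 (adjusted p = 0.396), and its 2 further probe sets by 0.07 and -0.10, so its direction differed among probe sets. Uqcrfs1, the Rieske iron-sulfur protein, differed by 0.10, and Cyc1, the cytochrome c1 that feeds cytochrome c, by -0.05. Cycs, cytochrome c itself, averaged 13.60 ± 0.18 in mutants and 13.70 ± 0.10 in controls (SD, n = 4 each; difference -0.10, adjusted p = 0.691). All 3 of its further probe sets were negative too, at -0.17 to -0.22, and none passed over all probe sets.

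The split read from the bioB controls, called hybridisation batch here, also separated the arrays of both core proteins of complex III. The macrophage mean was 12.40 to 13.20 on replicates 1 and 2, 13.22 on mutant 3 and 11.04 to 11.21 on mutant 4 and controls 3 and 4. The part of hybridisation or of cell content in the differences below was not tested. Uqcrc2 read 13.26, 13.14, 12.88 and 12.60 in mutants and 13.11, 13.11, 12.54 and 12.81 in controls. Replicates 1 and 2 of both genotypes averaged 13.16 and replicates 3 and 4 averaged 12.71. This batch difference of -0.45 passed (limma with genotype in the fit, adjusted p = 0.0495), as did 581 genes, or 3.19% of all. The genotype difference of Uqcrc2 was 0.08. Its partner Uqcrc1 ran the other way, at 12.57 in the first batch and 12.85 in the second (difference 0.28, adjusted p = 0.0701). Besides Uqcrc2, no member passed between batches. Ndufs1 came next at -0.38 (adjusted p = 0.0576), and the testis form Cox6b2 differed by 0.71 (adjusted p = 0.0714). Over all members the median absolute difference was 0.08 between batches and 0.07 between genotypes, and the batch difference was the larger in 41 of 79. The same medians over all genes were 0.15 and 0.12.

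**Figure D3:**
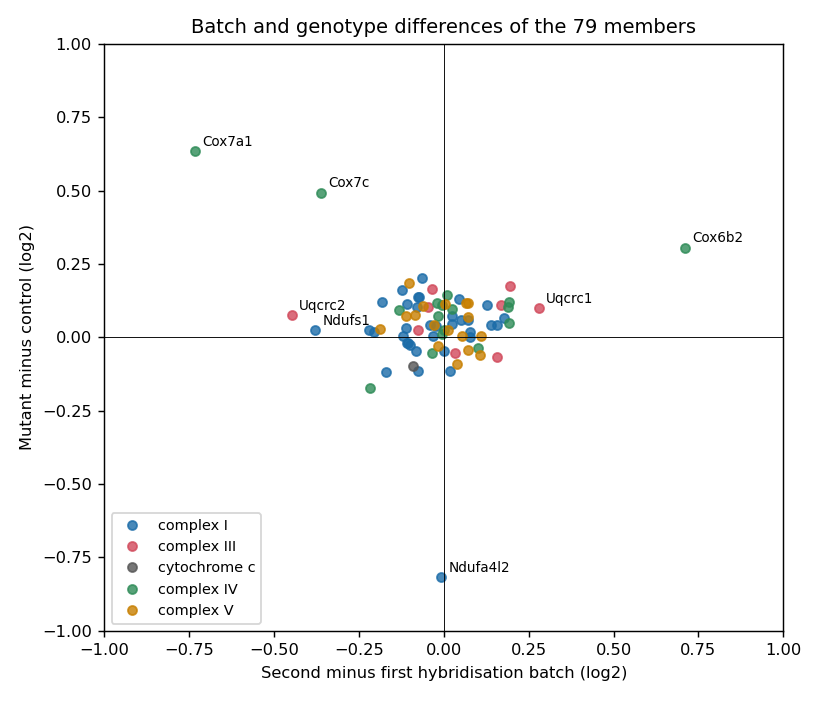
Mutant minus control difference (vertical, log2) against second minus first hybridisation batch difference (horizontal, log2) for each of the 79 members, coloured by complex. Most members sit close to the origin; Uqcrc2, Ndufs1, Uqcrc1 and Cox6b2 lie out along the batch axis, Ndufa4l2 along the genotype axis, and Cox7a1 and Cox7c away from 0 on both.

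In complex IV the widest spreads within a genotype belonged to the tissue forms Cox7a1, Cox6b2 and Cox6a2 and to the general form Cox7c. The 10 members counted as general forms were all positive, with a median of 0.10; one of them, Cox7a2l, is a factor that joins complexes III and IV. Leaving aside Cox7c, the other 9 lay between 0.01 and 0.15. Cox4i1, the general form of the largest nuclear subunit, read 14.40, 14.34, 14.43 and 14.29 in mutants and 14.23, 14.27, 14.26 and 14.25 in controls. Every mutant exceeded every control, by a gap of 0.02. The difference of 0.11 (SE 0.06) did not pass (adjusted p = 0.438). Cox6b1, on the intermembrane side, differed by 0.15 (adjusted p = 0.360). Cox6a1 was the steadiest of all members, at 14.67, 14.69, 14.67 and 14.67 in mutants and 14.68, 14.66, 14.65 and 14.68 in controls. Centring each array took the Cox6a1 difference from 0.01 to -0.02, and the signs of such small differences carry no direction.

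Cox7c, a small subunit of complex IV, read 7.80, 7.47, 7.21 and 7.05 in mutants and 7.12, 6.88, 6.59 and 6.97 in controls. Mutants 1 to 3 lay above every control, and mutant 4 lay below control 1. On the brightest probe set of Cox7c the difference was 0.49 (SE 0.18, adjusted p = 0.261), a fold of 1.41, and did not pass. Its other probe set, dimmer at 5.92 in mutants and 5.61 in controls, differed by 0.31 with no overlap. Both probe sets read near or under the median probe set of 6.94. The brightest had a mean of 7.14 over all arrays. The other 9 general forms had means from 13.10 (Cox7a2l) to 14.67 (Cox6a1). Whether the Cox7c probe sets report the main transcript of the gene was not tested, so the Cox7c differences describe these probe sets only. Within the batches the Cox7c difference was 0.63 in the first (adjusted p = 0.0403) and 0.35 in the second (adjusted p = 0.819), and it was 0.34 with the macrophage mean in the fit. The part of macrophages in the Cox7c values was not tested.

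The 7 tissue forms had a median of 0.05, ran from -0.17 to 0.63, and none passed or separated. Cox7a1, the heart and muscle form of subunit 7a, read 8.01, 7.90, 7.84 and 6.50 in mutants and 7.34, 7.21, 6.83 and 6.34 in controls. Mutants 1 to 3 were above all controls, and mutant 4 was below controls 1 to 3. The difference of 0.63 (SE 0.36, a fold of 1.55) did not pass (adjusted p = 0.433). Without mutant 4 it was 0.99 and passed (adjusted p = 0.0436), as did 7.23% of all genes in that fit. Within the first batch it was 0.68 and passed (limma, adjusted p = 0.0116), as did 11.5% of all genes in that fit of 2 arrays per genotype. Within the second batch it was 0.59 (limma, adjusted p = 0.850). Mutants 1 to 3 and controls 1 and 2 were also the arrays high for macrophage markers, and with that mean in the fit the Cox7a1 difference was 0.11 (SE 0.13, adjusted p = 0.676). That mean was itself higher in mutants (12.68) than in controls (11.82), so this fit cannot tell genotype and cell content apart. The part of those cells in the Cox7a1 values was not tested. Of 11 skeletal muscle markers 3 exceeded the median probe set on every array, with list means of 6.40 to 6.78, and of 7 brown adipocyte markers 2 did. The general partner Cox7a2 averaged 14.15 ± 0.07 in mutants and 14.12 ± 0.05 in controls (SD, n = 4 each). Its further probe set, at a mean of 13.70, differed by 0.16 with every mutant above every control. It did not pass over all probe sets (limma, adjusted p = 0.366).

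Cox6a2, the heart and muscle form of subunit 6a, read 8.03, 8.16, 8.20 and 8.16 in mutants and 8.67, 8.47, 8.36 and 7.74 in controls, and differed by -0.17 (adjusted p = 0.687). Controls 1 to 3 were above every mutant and control 4 below every mutant, as was also the case for Ndufa4l2. Within the first batch, with 2 arrays per genotype, the difference was -0.48 (limma, adjusted p = 0.0398), in a fit where 11.5% of all genes passed. Within the second batch it was 0.13 (limma, adjusted p = 0.918). Cox6b2, the testis form of subunit 6b, read 7.76, 8.20, 8.99 and 9.05 in mutants and 8.01, 7.99, 8.64 and 8.13 in controls. Its highest values were mutants 3 and 4 and control 3, the 3 arrays with low labelling controls, and with labelling batch as a block its difference went from 0.31 to 0.09. The part of labelling in the Cox6b2 values was not tested. Cox4i2, the hypoxia-inducible partner of Cox4i1, differed by -0.04, Cox8b by -0.05, Cox8c by 0.10 and Cox7b2 by 0.05. Cox7b2, like Ndufb4, had a mean below the median probe set, while 2 probe sets shared by Ndufb4 and its near copies read 13.14 to 13.21 and differed by 0.06 and 0.07.

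**Figure D4:**
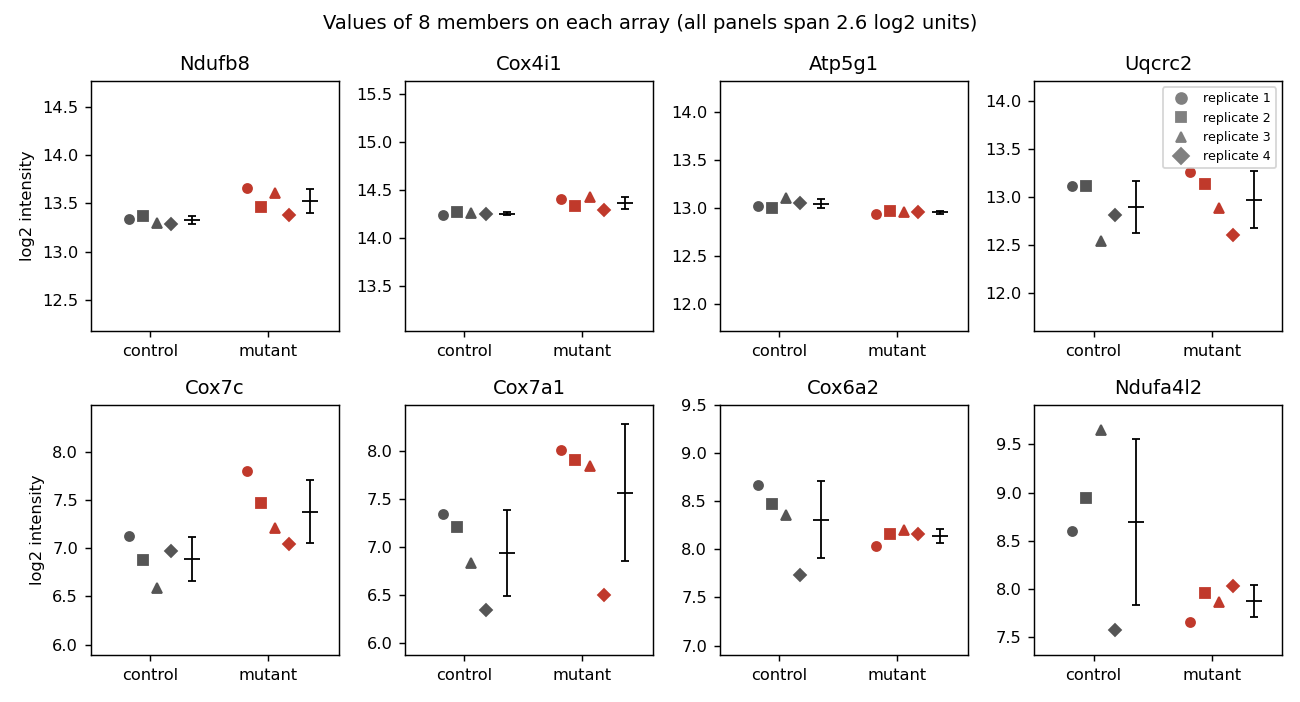
Log2 intensity of 8 members on each of the 8 arrays, by genotype and replicate number, with the mean and SD (n = 4) beside each group; each panel spans the same range of 2.6 log2 units. Ndufb8, Cox4i1 and Atp5g1 are tight with narrow gaps between genotypes, Uqcrc2 falls into replicates 1 and 2 against 3 and 4, and Cox7c, Cox7a1, Cox6a2 and Ndufa4l2 spread widely within a genotype.

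The 17 members of ATP synthase lay between -0.09 and 0.18, with a median of 0.04 and 13 positive. The catalytic head, F1, was represented by 5 members with a median of 0.07. Its alpha and beta subunits, Atp5a1 and the catalytic Atp5b, differed by 0.11 and -0.04, and the small epsilon subunit Atp5e by 0.18 (adjusted p = 0.372). The 4 members of the peripheral stalk, which holds the head still, lay between -0.03 and 0.07. The 5 small membrane subunits were all positive, from 0.00 to 0.12, and Atp5l, subunit g, was the highest of them. The ATPase inhibitor gene, listed as Atpif1 and no member by its symbol, averaged 13.35 ± 0.17 in mutants and 13.24 ± 0.09 in controls (SD, n = 4 each; adjusted p = 0.642).

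Subunit c, whose ring turns as protons pass, is encoded by 3 genes with the same mature protein. Atp5g1 read 12.93, 12.96, 12.96 and 12.96 in mutants and 13.02, 13.00, 13.10 and 13.05 in controls. Every mutant lay below every control, by a gap of 0.04, which made it the single member separate in the lower direction. Its difference of -0.09 (SE 0.06) did not pass (adjusted p = 0.507), and it was negative under each of the 23 alternatives. Atp5g2 differed by 0.07 and Atp5g3 by 0.02.

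From array to array the complexes stayed within narrow ranges. The median deviation of all members from their mean over the 8 arrays was 0.06, 0.02, 0.05 and -0.02 in mutants 1 to 4 and -0.05, -0.01, -0.00 and -0.04 in controls 1 to 4. Mutants 1 to 3 were above 0 and the other 5 arrays below it. Mutants 1 to 3 are also the arrays with the highest macrophage markers, and with that mean in the fit the members' median difference was 0.03. That mean was higher in mutants (12.68) than in controls (11.82), so the fit cannot tell genotype and cell content apart. The part of those cells in the members' values was not tested. Within the batches the members' median difference was 0.06 in the first and 0.03 in the second. For complex IV the deviations were 0.05, 0.02, 0.08 and -0.01 in mutants and -0.10, -0.04, -0.02 and -0.01 in controls, so that mutant 4 lay between controls 3 and 4.

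**Figure D5:**
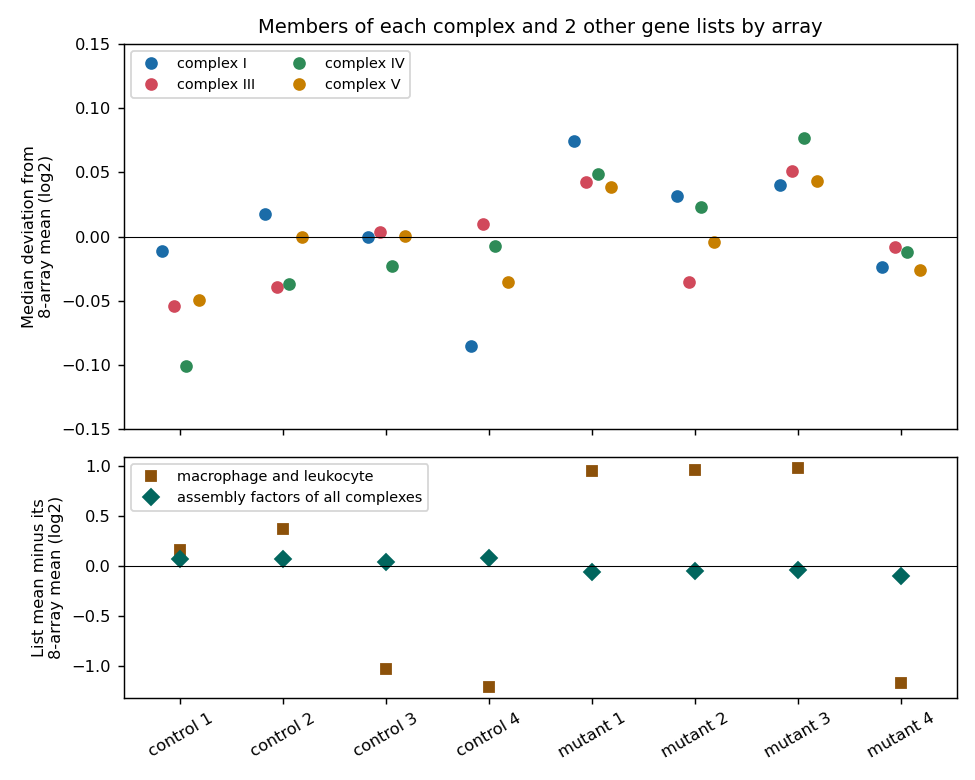
Upper panel: median deviation of the members of each complex from their mean over the 8 arrays (log2), by array. Lower panel: mean of the macrophage and leukocyte markers and of the assembly factors on each array, minus the mean of that list over the 8 arrays (log2); the complexes run from -0.10 to 0.08, macrophage markers are low on mutant 4 and controls 3 and 4, and assembly factors are below 0 on every mutant array.

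Several probe sets report the same member, and they were compared by direction. For 46 members there were 81 further probe sets, and 71 of these had the sign of the brightest one. Among the 56 further probe sets above 9, 52 had that sign. At an unadjusted p under 0.05 there were 7, of which 6 had the sign of the brightest, and none of the 160 probe sets of members passed when adjusted over all probe sets.

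Genes that build the complexes had mostly negative differences, and none of them passed. Of 48 listed assembly factors and related genes 44 were measured, with a median of -0.13, and 33 were negative. At an unadjusted p under 0.05 there were 11 lower and 1 higher (27.3% together, against 15.5% of all genes). In 9 all mutants lay below all controls and in 0 above, which is 20.5% against 8.07% of all genes in either direction. Of all 18193 genes, 942 lay lower without overlap. The list includes Ndufab1, an acyl carrier protein that is also a complex I subunit. The mean over the list was 10.01 to 10.06 on mutant arrays and 10.14 to 10.19 on control arrays, without overlap. The median was -0.15 within the first batch and -0.12 within the second. It depended on the probe set used, at -0.07 with probe sets averaged and -0.06 with the most variable one. The lowest adjusted p was 0.161.

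By complex, the median of the 16 complex I assembly factors was -0.17. With an unadjusted p under 0.05, 4 were lower and 0 higher (25%, against 15.5% of all genes in either direction). The smallest p among them belonged to Ndufaf2, a late-acting chaperone of complex I, at 9.82 ± 0.08 in mutants and 10.15 ± 0.20 in controls (SD, n = 4 each; difference -0.33, adjusted p = 0.237). The 6 factors of complex III had a median of -0.09, and Ttc19, which clears fragments of the Rieske protein, differed by -0.49 (adjusted p = 0.201). The median of the 19 factors of complex IV was -0.04, and 6 were lower and 1 higher with an unadjusted p under 0.05 (36.8% together, against 15.5% of all genes). Cox18, which inserts part of mitochondrially encoded COX2 into the membrane, averaged 10.31 ± 0.19 in mutants and 10.89 ± 0.15 in controls (SD, n = 4 each; difference -0.57, adjusted p = 0.161), and Cox11, which brings copper to COX1, differed by -0.35 (adjusted p = 0.187). Neither pair of genotypes overlapped, nor did that of Cox10 (difference -0.17). That makes 3 of the 19 without overlap (15.8%, against 8.07% of all genes). The 3 factors of ATP synthase had a median of -0.21.

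No gene of the other pathway lists passed the adjusted threshold. The 4 subunits of complex II, which feeds electrons from succinate, had a median of 0.08, none at an unadjusted p under 0.05. The 12 genes of coenzyme Q synthesis had a median of -0.10. At that threshold 1 was higher and 0 lower (8.33%, against 15.5% of all genes in either direction). It was Coq8a, an atypical kinase of the pathway, at 8.23 ± 0.45 in mutants and 7.58 ± 0.18 in controls (SD, n = 4 each, difference 0.65, adjusted p = 0.230). Carriers and channels of the inner and outer membranes had a median of -0.06 over 6 genes. Among 16 regulators of mitochondrial biogenesis the median was -0.06, with 11 negative and 5 positive. The largest difference in size was positive, 0.67 for Ppargc1b of the PGC-1 family (limma, adjusted p = 0.373). Esrra (0.35) and Ppargc1a of the same family as Ppargc1b (0.10) were positive too. At an unadjusted p under 0.05, 2 of the 16 were lower and 0 higher, which is 12.5% against 15.5% of all genes in either direction. Both had no overlap between genotypes, as had Tfam (difference -0.15). That makes 3 of the 16 without overlap (18.75%, against 8.07% of all genes). Gabpb1, the activating partner in the ETS factor GABP, averaged 8.31 ± 0.12 in mutants and 8.73 ± 0.15 in controls (SD, n = 4 each; difference -0.43, adjusted p = 0.187), and Pprc1, a coactivator of the PGC-1 family, differed by -0.33 (adjusted p = 0.189).

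Some members share promoter letters, which the choice of members did not use. Nuclear genes of the respiratory chain are known targets of NRF1 and GABP, so matches to their motifs were sought on both strands of 300-base windows, 250 bases before to 50 after each gene start, from RefSeq for GRCm38.p6. Windows were found for 64 of 79 members. The NRF1 motif GCGCATGCG lay in 8 of these 64 genes (12.5%), against 2.61% of 17492 protein-coding genes and 1.75% of all 32851 windows. With any base at its centre (GCGCNNGCG, which includes every match of the former) it lay in 26 (40.6%), against 18.1% of protein-coding genes. GABP's CCGGAAG lay in 15 (23.4%, against 12.9%) and YY1's AAGATGGC in 9 (14.1%, against 3.57%). The cyclic AMP element TGACGTCA lay in 4 (6.25%, against 2.54%) and the estrogen-related receptor motif TCAAGGTCA in 1 (1.56%, against 0.377%). Median GC content was 57.7% in members' windows and 56.3% in those of protein-coding genes. A match is a description of these letters and no evidence of binding.

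Promoter windows of Cox6a1, Atp5l and Cox7a1 are printed as examples, chosen after their values were seen, to show what such matches look like and a window with none. Capitals mark matches to GCGCATGCG and CCGGAAG or their reverse complements; each window is written from 5′ to 3′ on the strand of its gene. Cox6a1 is at chr5:115348909-115349208 on the minus strand, Atp5l at chr9:44920693-44920992 on the minus strand and Cox7a1 at chr7:30183921-30184220 on the plus strand, all in GRCm38.p6.
Cox6a1: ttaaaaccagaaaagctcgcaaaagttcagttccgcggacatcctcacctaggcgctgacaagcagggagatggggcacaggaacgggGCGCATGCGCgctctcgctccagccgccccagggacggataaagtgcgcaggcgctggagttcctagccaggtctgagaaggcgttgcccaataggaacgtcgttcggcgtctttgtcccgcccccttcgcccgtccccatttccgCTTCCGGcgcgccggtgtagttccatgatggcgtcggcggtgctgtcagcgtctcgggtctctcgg
Atp5l: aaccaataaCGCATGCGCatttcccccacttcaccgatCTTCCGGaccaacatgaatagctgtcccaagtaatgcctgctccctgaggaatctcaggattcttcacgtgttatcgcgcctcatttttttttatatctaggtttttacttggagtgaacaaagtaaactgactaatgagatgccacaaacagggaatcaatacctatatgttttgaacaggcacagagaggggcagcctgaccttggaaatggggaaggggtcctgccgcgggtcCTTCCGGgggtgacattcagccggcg
Cox7a1: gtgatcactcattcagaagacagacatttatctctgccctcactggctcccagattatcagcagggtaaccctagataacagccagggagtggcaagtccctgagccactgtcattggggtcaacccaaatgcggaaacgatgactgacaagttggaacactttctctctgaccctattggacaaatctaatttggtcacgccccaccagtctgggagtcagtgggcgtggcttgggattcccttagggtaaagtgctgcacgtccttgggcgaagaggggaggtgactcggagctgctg
The Cox6a1 window holds overlapping NRF1 matches on both strands and 1 GABP match, and the Atp5l window 1 NRF1 match and 2 GABP matches. Neither motif is in the Cox7a1 window, nor in those of the general forms Cox5a, Cox5b, Cox7a2, Cox7a2l and Cox7c. Cox6a1 differed by 0.01 between genotypes, Atp5l by 0.12 and Cox7a1 by 0.63, and none of them passed.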

How the data were processed

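The authors deposited log2 intensities, 1 per probe set and array, made with RMA per the submitters' processing notes (version not given in the sources used here); values were used as deposited. RMA corrects background, scales arrays to 1 distribution and sums probes, which limits shifts of whole arrays and can narrow differences near both ends of the range. Of 45101 probe sets, 34945 had 1 gene symbol, updated through Entrez identifiers to RefSeq GRCm38.p6, and the brightest stood for each gene. Probe sets with several symbols (932) or none listed (9160) and 64 array controls were left out. limma 3.58.1 under R 4.3.3 gave the differences (lmFit, eBayes, two-sided, no covariate), with Benjamini-Hochberg adjustment over all 18193 genes and a threshold of 0.05; the fit was tested on simulated data. With 4 arrays per genotype, their number limits the precision.

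Members and gene lists were chosen with earlier results of these data known. Named members were, per complex, those with the smallest unadjusted p under 0.05, the 2 largest differences, the 2 widest spreads, every listed isoform pair, and Ndufa4, Cycs, Cyc1 and Atpif1; from each other list up to 3 genes with the smallest p could be named. Other genes in the text illustrate roles, direction or separation and were chosen after their values were seen. Batches came from the array controls, since the labels name none.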

Additional observations from a re-analysis of the deposited data

Results flagged for a closer look

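Among the 60 groups of 4 arrays for the 30 named members, 4 held 1 array far from its 3 neighbours; over all members there were 7 of 158 groups, and chance gives about 1 in 20. Cox7a1, the heart and muscle form of subunit 7a, was 6.50 in mutant 4, with 7.84 to 8.01 in the other mutants. Cox8b, the heart and muscle form of subunit 8, was 7.02 in mutant 3, with 7.21 to 7.25 in the others. Cox7a2l, the factor joining complexes III and IV, was 12.92 in control 1, with 13.08 to 13.10 in the others. Cox6a1, the general form of subunit 6a, was 14.69 in mutant 2, with 14.67 in each of the others, a gap that is wide only beside its own narrow range.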

How the results depend on the processing

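No member passed under 21 of the 23 alternatives. Within the first hybridisation batch (2 arrays per genotype) 4 did, Cox6a2, Cox7a1, Cox7c and Ndufa4l2, among 2085 genes, and within the second 0 members and 0 genes. Leaving out single arrays gave 0 to 1 members (Cox7a1, without mutant 4) and 0 to 1316 genes: 1316 without mutant 4, 31 without control 4, and 0 to 2 without any other. The count of 16 genes became 3 with the most variable probe set, 1470 under array weights, 2 with labelling batch as a block and 54 with the macrophage covariate. The cause of these shifts was not tested. Same-numbered arrays share a hybridisation batch and correlated at 0.47, 0.42, -0.09 and 0.37. Differently numbered arrays of the same batch correlated at 0.51 (mutant 1, control 2) and 0.47 (mutant 2, control 1). The others gave -0.21 (mutant 3, control 4) and 0.61 (mutant 4, control 3). Since same numbers did not correlate better throughout, the numbers were not taken as pairing the samples. The replicate block gave 0 genes and 0 members. The complex V median was 0.0104 after centring and -0.0052 in the second batch, where that of complex III was 0.0635. The assembly factor median, added after its values were seen, was -0.17 after centring, -0.071 with probe sets averaged, -0.057 with the most variable one, -0.16 over genes above the median probe set, -0.16 under array weights, and -0.16 to -0.12 with single arrays left out. Loosening the NRF1 motif raised its share from 12.5% to 40.6%. Of 30 named members 13 kept their sign throughout and 17 did not, including Ndufb8 (-0.04 with its most variable probe set). The protein comparison of isoform pairs was not run. Signal near the ends of the scale limits which differences the arrays can show.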
